A study of Mus musculus with 26 samples.

Results

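The comparison set YFP-positive liver cells of mice fed the toxin DDC for 3 days against day 0 cells of chow-fed mice. It was taken by sample title and used 6 of the 20 arrays that came with a scanner file, in a series of 26 samples. The YFP-positive day 3 group held 4 arrays and the day 0 group held 2. Further day 0 samples of the series came without a scanner file and were not used. All mice were offspring of a Foxl1-Cre by RosaYFP cross aged 6 to 10 weeks, so that cells whose history includes activity of the Foxl1 promoter carry the yellow fluorescent protein YFP. Non-parenchymal cells are the cells of the liver that are not hepatocytes, and the YFP-positive ones came from a sort that kept those without the leukocyte surface protein CD45. The day 0 samples were total non-parenchymal cells from mice of the same genotype on chow, with no sort by YFP or CD45 stated. Diet and sort gate therefore changed together, and their parts in any difference cannot be told apart. The 3 arrays of YFP-negative cells sorted through the same CD45 gate on the same day of DDC are given beside some values. Both day 3 fractions were set against the same 2 day 0 arrays, so their changes are not independent of each other.

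DDC blocks the last step of heme synthesis, lets porphyrins accumulate and injures bile ducts, and it is a standard means of calling up ductal cells with progenitor traits in mouse liver. Foxl1 encodes a winged helix transcription factor whose promoter is used to trace such cells. Non-parenchymal cells of a resting liver are largely sinusoidal endothelial cells, Kupffer cells and other leukocytes, stellate cells and cells of the bile ducts.

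Values are log2 intensities relative to the 75th percentile of each array, and changes are log2 differences of YFP-positive day 3 minus day 0 cells ± standard error of the fit. Nothing in the labels says that arrays of a group came from separate animals, so p-values measure a spread between samples. That spread was pooled in the fit over all 20 arrays in 7 groups, including groups outside this comparison. Spots well above background made up 81.0 to 87.7 percent of the YFP-positive arrays, against 89.9 and 91.2 percent of the day 0 arrays. The pairwise correlation across all genes ran from 0.784 to 0.916 among the YFP-positive arrays and was 0.928 between the day 0 arrays. The median standard deviation of a gene was 0.92 among the YFP-positive arrays and 0.37 between the day 0 arrays. Foxl1 is not analysed here, so the label could not be checked on the driver of the recombinase.

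The marker lists of 15 cell types showed 2 YFP-positive arrays that stood apart. Among the 4, array 4 had the highest median of the 24 biliary and progenitor markers and the lowest medians of the pan-leukocyte, Kupffer cell, sinusoidal endothelial, stellate and myofibroblast lists. The biliary list had medians of 1.5, 1.52, -1.5 and 2.88 on the 4 YFP-positive arrays and of -0.12 and -1.16 on the day 0 arrays. Array 3 was the lowest of its group and lay below both day 0 arrays on this list. Of the 15 pan-leukocyte markers the medians were 2.23, 0.95, 1.21 and -3.23 on the YFP-positive arrays and 0.54 and -1.83 on the day 0 arrays. Ptprc, which encodes the CD45 of the gate, stood at 3.72, 1.52, 2.16 and -7.55 on the YFP-positive arrays and at 1.46 and -1.81 on the day 0 arrays. Ptprc was thus well above background on 3 of 4 YFP-positive arrays of a CD45-negative sort, at levels above both day 0 arrays. The part of these cell mixtures in the results below was not tested. In such mixtures fewer cells of a type and less RNA per cell cannot be told apart.

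**Figure D1:**
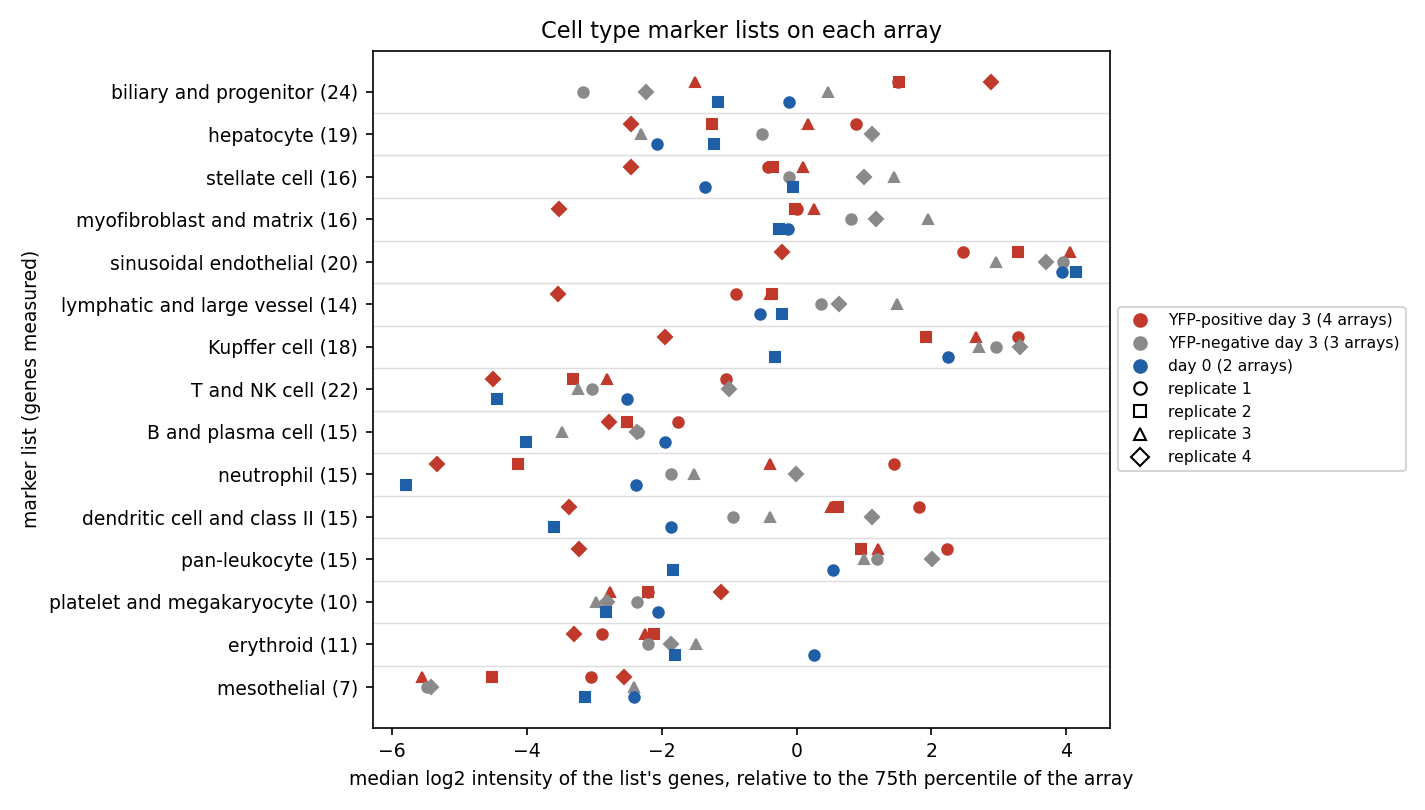
Median log2 intensity of each cell type marker list, relative to the 75th percentile of the array, on 4 YFP-positive day 3 (red), 3 YFP-negative day 3 (grey) and 2 day 0 arrays (blue), with the replicate number as the symbol. YFP-positive array 4 (diamonds) has the highest biliary median, 2.88, and the lowest pan-leukocyte median, -3.23.

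Fitted over 26650 genes, 14 passed an adjusted p under 0.05 by limma's moderated test with Benjamini-Hochberg adjustment, which is 0.0525% of the genes. Of these 6 rose (0.0225%) and 8 fell (0.03%). At an unadjusted p under 0.05 there were 2723 genes (10.2%), 904 higher (3.39%) and 1819 lower (6.83%). On every YFP-positive array above both day 0 arrays were 1857 genes (6.97%), and on every one below both were 3614 genes (13.6%). The median change of all genes was -0.19. Only 2 of the 6 arrays are day 0 arrays, and no gene passed when the fit used the 6 arrays alone, with 1758 genes at an unadjusted p under 0.05.

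The 6 genes that rose encode an interleukin 1 antagonist, the urokinase receptor, a cornified envelope protein, a STEAP family protein, a replication ubiquitin ligase subunit and a tubulin. Il1rn, the secreted antagonist of the interleukin 1 receptor, had 1.29, 1.37, -1.0 and 1.87 on the YFP-positive arrays, against -4.47 and -6.91 on the day 0 arrays. Every YFP-positive array lay above both day 0 arrays, with array 3 the lowest. The rise was 6.57 ± 1.0 (95.0-fold, adjusted p = 0.0252, limma). Its probe lies at chr2:24203035-24204055 of mm9 on the plus strand and is shown because its signal is the largest rise past the threshold.
Il1rn probe: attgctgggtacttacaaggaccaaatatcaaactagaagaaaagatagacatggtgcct

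Plaur, the cell surface receptor of the protease urokinase, had 2.05, 1.54, 1.12 and 1.58 on the YFP-positive arrays and -2.89 and -1.77 on the day 0 arrays. The 4 YFP-positive arrays lay within 1 log2 unit of each other and well clear of day 0. The rise was 3.90 ± 0.55 (14.9-fold, adjusted p = 0.0139, limma). Sprr1a, a precursor of the cornified envelope of squamous epithelia, had 1.04, 1.52, -0.73 and 3.31 on the YFP-positive arrays and -2.67 and -5.24 on the day 0 arrays. It rose by 5.24 ± 0.85 (37.9-fold, adjusted p = 0.0325, limma), with array 4 the highest and array 3 the lowest.

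Steap1, of the STEAP family of membrane metalloreductases, had -0.57, -2.29, -0.85 and 0.59 on the YFP-positive arrays and -6.36 and -5.11 on the day 0 arrays. It rose by 4.96 ± 0.78 (31.0-fold, adjusted p = 0.0268, limma), and its groups did not overlap. Tubb6, a beta-tubulin, had 2.20, 1.85, 1.18 and 1.61 on the YFP-positive arrays and -1.24 and -1.25 on the day 0 arrays. Its rise of 2.96 ± 0.40 (7.75-fold, adjusted p = 0.0116, limma) was the smallest of the 6, and its groups did not overlap.

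Dtl, the substrate receptor of the CUL4 ubiquitin ligase that removes Cdt1 during replication, had 0.00, -0.40, -1.57 and -0.08 on the YFP-positive arrays and -8.55 and -5.0 on the day 0 arrays. It rose by 6.26 ± 0.98 (76.6-fold, adjusted p = 0.0268, limma), though only 1 of the day 0 arrays was well above background. Both other probes of Dtl, which were dimmer, had the opposite sign, and the mean of all its probes gave 1.74 (adjusted p = 0.513, limma).

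Some of these calls rested on the processing. After normexp and quantile normalization Plaur and Tubb6 were the rises that still passed, and with the mean of all probes of a gene Sprr1a was the one of the 6 that did. Without day 0 array 1 none of the 6 passed by limma, without day 0 array 2 Dtl and Plaur did, and without YFP-positive array 1 Tubb6 did. Slides 1 and 3 each held an array of both groups, and with slide as a fixed block Sprr1a was the rise that still passed.

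The same 6 genes were read in the YFP-negative day 3 cells. Tubb6 stood at 1.31, 2.21 and 1.65 there, and the YFP-positive minus YFP-negative difference was -0.01 ± 0.36. Plaur differed between the fractions by 0.32 ± 0.48 and Steap1 by -0.19 ± 0.69. In the YFP-negative cells 12 genes passed against the same day 0 arrays (0.045%). Among these were rises of 2.97 ± 0.42 in Tubb6 (adjusted p = 0.0172, limma), 3.58 ± 0.58 in Plaur (adjusted p = 0.0358) and 5.14 ± 0.82 in Steap1 (adjusted p = 0.0358). Il1rn ran 1.65 ± 0.88, Sprr1a 1.94 ± 0.75 and Dtl 1.99 ± 0.87 higher in the YFP-positive than in the YFP-negative fraction. Over all genes no difference between the fractions passed (0 of 26650, 0%), while 2091 genes (7.85%) had an unadjusted p under 0.05.

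**Figure D2:**
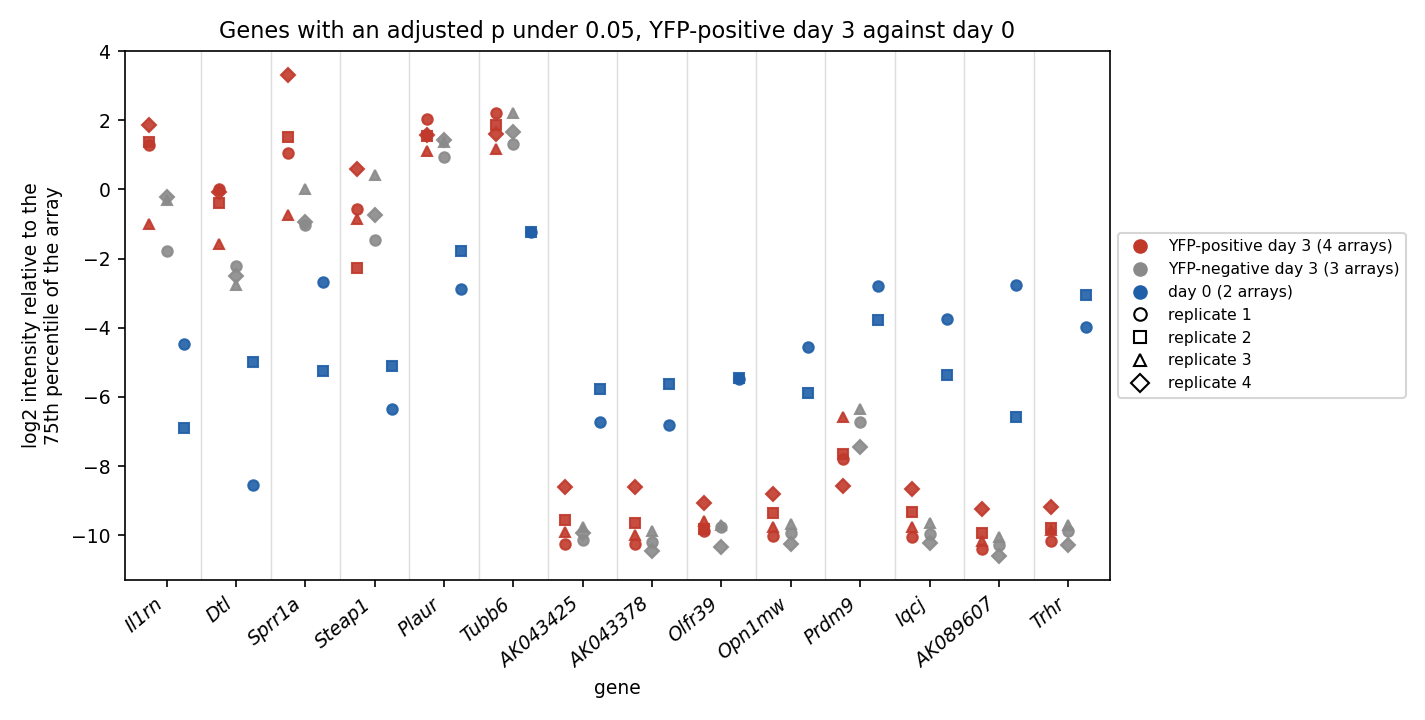
Log2 intensity, relative to the 75th percentile of the array, of the 14 genes past the threshold on 4 YFP-positive day 3 (red), 3 YFP-negative day 3 (grey) and 2 day 0 arrays (blue), each point 1 array with the replicate number as the symbol. The 8 genes that fell lie at -6.57 or lower on every YFP-positive array, and for Trhr the YFP-negative arrays lie at -9.69 or lower.

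Upstream sequence was looked at for the genes that rose, as a description with no test. RefSeq promoters of GRCm38.p6 (250 bases before to 50 after a start site) were held for 5 of the 6. The AP-1 motif TGANTCA, searched on both strands, was in 3 of these 5 promoters (60%) and in 8.97% of the promoters of all 27025 genes. Of the other 4 motifs searched, the antioxidant response element TGACNNNGC was in 2 of the 5 (40%, against 14.0%), the E2F motif TTTNNCGC in 2 (against 5.93%), the CCAAT box in 2 (against 41.1%) and the CHR motif TTTGAA in 0 (against 20.2%). AP-1 is shown because it was in the most. A match says that these letters are there, not that a factor binds. The 250 bases before the start site follow, with the motif in capitals. They lie at chr7:24462233-24462482 on the plus strand for Plaur, at chr2:24336610-24336859 on the plus strand for the first of 3 start sites of Il1rn, and at chr3:92485882-92486131 on the minus strand for Sprr1a.
Plaur upstream: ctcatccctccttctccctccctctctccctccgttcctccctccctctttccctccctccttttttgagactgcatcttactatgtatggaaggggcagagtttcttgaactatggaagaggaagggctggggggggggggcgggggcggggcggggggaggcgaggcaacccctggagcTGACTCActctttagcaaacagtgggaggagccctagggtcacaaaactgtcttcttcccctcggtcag
Il1rn upstream: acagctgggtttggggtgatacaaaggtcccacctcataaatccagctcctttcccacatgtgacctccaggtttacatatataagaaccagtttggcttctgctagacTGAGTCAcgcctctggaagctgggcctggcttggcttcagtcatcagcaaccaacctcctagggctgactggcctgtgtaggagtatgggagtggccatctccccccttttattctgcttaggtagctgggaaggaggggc
Sprr1a upstream: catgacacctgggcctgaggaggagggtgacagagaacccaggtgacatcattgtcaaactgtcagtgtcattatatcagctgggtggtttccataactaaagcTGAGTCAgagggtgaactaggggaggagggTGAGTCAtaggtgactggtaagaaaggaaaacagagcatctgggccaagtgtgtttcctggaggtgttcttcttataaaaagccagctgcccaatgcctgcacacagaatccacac
The motif begins 69 bases before the start site in Plaur, 141 in Il1rn, and 146 and 116 in Sprr1a. The other start sites of Il1rn and the one of Steap1 had no match in this window.

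Below the threshold, the next genes without overlap in order of unadjusted p included Nhp2, Lrg1, Gsta2, Cks1b, Pbk, Cxcl5, Uck2 and Litaf, with adjusted p between 0.0702 and 0.122 by limma. Gsta2, a glutathione transferase, had 2.71, 2.88, 3.39 and 1.5 on the YFP-positive arrays and -7.41 and -1.86 on the day 0 arrays, a change of 7.25 ± 1.33. Its 2 day 0 arrays lay far apart, and only 1 of them was well above background. Cxcl5, a neutrophil-attracting chemokine, had 2.27, 1.86, -2.13 and 2.46 on the YFP-positive arrays and -6.92 and -4.92 on the day 0 arrays, a change of 7.04 ± 1.38. Lrg1, a leucine-rich glycoprotein of plasma, stood 2.22 ± 0.40 higher and Nhp2, a protein of the small ribonucleoproteins that modify ribosomal RNA, 2.43 ± 0.43 higher. Litaf, an endosomal membrane protein, had 3.23, 2.92, 3.14 and 2.98 on the YFP-positive arrays and 1.59 and 1.56 on the day 0 arrays, the smallest change of these at 1.49 ± 0.30. Uck2, a kinase that salvages uridine and cytidine, stood 3.33 ± 0.67 higher. Cks1b, a subunit of cyclin-dependent kinases, and Pbk, a mitotic kinase, stood 2.22 ± 0.43 and 4.45 ± 0.86 higher.

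Mitosis and DNA replication genes stood higher as groups, although no member passed over all genes. Of 20 mitosis genes 14 were higher on every YFP-positive array (70.0%, against 6.97% of all genes) and 0 were lower on every one. Their median change was 1.59, against -0.19 for all genes, with a range of -1.64 to 4.36. The per-array median of the list was -0.50, -0.99, -1.12 and -1.70 on the YFP-positive arrays and -2.21 and -2.48 on the day 0 arrays, so that array 4, with the highest biliary markers, had the lowest of its group. Of 20 replication genes 15 were higher without overlap (75%, against 6.97% of all genes) and none lower, with a median change of 1.09. The per-array median of this list was 0.37, 0.25, -0.15 and 1.30 on the YFP-positive arrays and -1.04 and -0.97 on the day 0 arrays. Array 4 was thus the highest of its group for replication genes, unlike for mitosis genes. Leaving out any 1 of the 6 arrays left 14 or 15 mitosis genes and 15 to 17 replication genes higher without overlap. The share of all genes higher then rose to between 8.96% and 13.8%.

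Mki67, the proliferation antigen that coats mitotic chromosomes, had 2.45, 2.50, 1.56 and 2.10 on the YFP-positive arrays and 1.01 and 0.28 on the day 0 arrays, a change of 1.51 ± 0.63 (adjusted p = 0.457, limma). Among members chosen after their values were seen, in order of unadjusted p, was Top2a, the topoisomerase that untangles chromosomes, with 1.45, 1.54, 0.73 and 1.68 on the YFP-positive arrays and -2.19 and -1.06 on the day 0 arrays. Its change was 2.97 ± 0.69 (adjusted p = 0.215, limma). Aurkb, the kinase of the chromosomal passenger complex, was well above background on all 4 YFP-positive arrays and on neither day 0 array. It had -4.03, -3.83, -3.87 and -6.61 on the YFP-positive arrays, which is at least 15.7-fold higher than day 0 (adjusted p = 0.218, limma). Differences were 2.92 for Tpx2, a spindle assembly factor, 2.38 for the kinesin Kif20a, 1.89 for the survivin gene Birc5 and 2.13 for the kinase Aurka, all without overlap. The mitosis genes that did not stand higher on every array included Cenpa, the centromere histone, with -0.92, -0.67, 0.60 and -2.89 on the YFP-positive arrays and 0.39 and 0.96 on the day 0 arrays.

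Mcm2, a subunit of the replicative helicase, had -1.95, -0.19, -1.36 and 0.55 on the YFP-positive arrays and -1.37 and -1.89 on the day 0 arrays, and the groups overlapped (0.89 ± 0.72, adjusted p = 0.693, limma). The subunits Mcm4, Mcm5, Mcm6 and Mcm7, again chosen after their values were seen, did not overlap, with changes of 0.99, 1.29, 0.89 and 1.73. Cdt1, which loads that helicase at origins, had 0.43, 0.61, -0.42 and 1.34 on the YFP-positive arrays and -1.51 and -3.10 on the day 0 arrays, a change of 2.80 ± 0.63 (adjusted p = 0.206, limma). Rrm2, the small subunit of ribonucleotide reductase, had 0.28, -0.98, -1.37 and -0.83 on the YFP-positive arrays and -3.65 and -3.58 on the day 0 arrays (2.89 ± 0.97). The YFP-negative fraction, against the same day 0 arrays, had median changes of 1.52 for mitosis and 0.80 for replication genes. Between the fractions the medians differed by 0.23 and 0.34, against 0.15 for all genes.

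**Figure D3:**
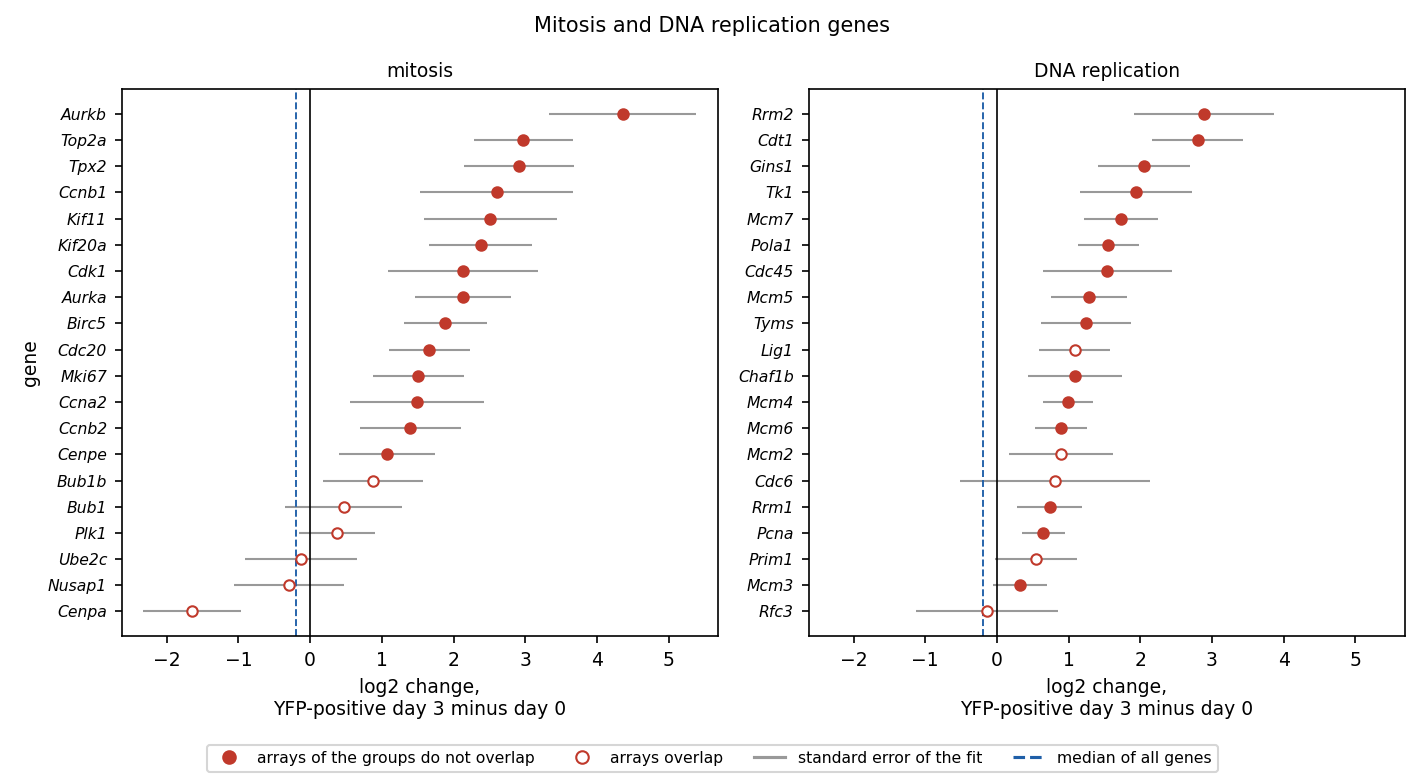
Log2 change, YFP-positive day 3 minus day 0, of each of the 20 mitosis and 20 DNA replication genes with the standard error of the fit as the bar. Filled points mark genes whose arrays do not overlap between the groups, and the dashed line is the median of all genes at -0.19; most members lie to its right.

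Promoters of these lists carried the motifs known from cell cycle genes. Of the 16 mitosis genes with a RefSeq promoter 11 held the CHR motif TTTGAA on either strand (68.8%) and 14 the CCAAT box (87.5%), against 20.2% and 41.1% of all genes. Of 18 replication genes 10 held the E2F motif TTTNNCGC (55.6%), against 5.93% of all. These motifs are part of how such genes are known, so the shares describe the lists and are no result of the arrays. Cdk1, the kinase that drives entry into mitosis, had -2.48, -1.18, -1.06 and -0.16 on the YFP-positive arrays and -3.54 and -3.17 on the day 0 arrays, a change of 2.13 ± 1.05. Its upstream sequence (chr10:69352913-69353162, minus strand) shows the CHR and CCAAT matches in capitals, the CCAAT boxes being read on the opposite strand as ATTGG. That of Dtl (chr1:191575545-191575794, minus strand) shows an E2F match 8 bases before the start site.
Cdk1 upstream: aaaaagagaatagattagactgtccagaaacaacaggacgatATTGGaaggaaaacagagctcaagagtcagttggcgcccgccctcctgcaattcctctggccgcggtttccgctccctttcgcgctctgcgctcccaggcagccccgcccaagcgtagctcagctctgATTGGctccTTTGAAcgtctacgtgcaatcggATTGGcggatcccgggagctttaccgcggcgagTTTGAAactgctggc
Dtl upstream: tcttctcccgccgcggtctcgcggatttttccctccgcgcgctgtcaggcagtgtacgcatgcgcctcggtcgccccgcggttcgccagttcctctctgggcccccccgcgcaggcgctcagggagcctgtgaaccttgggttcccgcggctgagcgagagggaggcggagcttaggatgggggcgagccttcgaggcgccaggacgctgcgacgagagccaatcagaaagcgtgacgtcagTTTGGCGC
In Cdk1 the CHR matches begin 71 and 15 bases before the start site and the CCAAT matches 208, 80 and 48 bases before it.

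G1 regulators had no common direction. The list had a median change of 0.14 over 15 genes. Without overlap 1 was higher (6.67%, against 6.97% of all genes) and 3 were lower (20%, against 13.6%). Ccnd1, the D-type cyclin, had 2.39, 2.62, 1.30 and 4.33 on the YFP-positive arrays and 2.08 and 2.37 on the day 0 arrays (0.43 ± 0.61). Lower on every YFP-positive array were Cdkn1c, which encodes the inhibitor p57, with -2.72, -1.30, -0.52 and -3.55 on the YFP-positive arrays against 0.65 and -0.16 on the day 0 arrays, and also Ccnd2 and Cdkn2c, all chosen after their values were seen.

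NRF2 targets, the genes that an oxidant-sensing transcription factor switches on for glutathione and NADPH supply, stood higher without overlap in 13 of 22 cases (59.1%, against 6.97% of all genes) and lower in 1 (4.55%, against 13.6%). Their median change was 1.17 with a range of -0.78 to 7.25, and none passed over all genes. Leaving out any 1 array left 13 to 16 higher, while the share of all genes higher rose to between 8.96% and 13.8%. The exception was Nqo1, the quinone reductase often taken as the lead target, with 0.80, 1.1, 1.41 and 1.31 on the YFP-positive arrays and 2.14 and 1.73 on the day 0 arrays (-0.78 ± 0.56, adjusted p = 0.650, limma). The members with the smallest p were glutathione transferases, chosen after their values were seen. Gsta1 had 2.78, 2.68, 3.32 and 2.24 on the YFP-positive arrays and -1.1 and -0.36 on the day 0 arrays, a change of 3.48 ± 0.83 (adjusted p = 0.231, limma). Gsta1 and Gsta2 are near-identical paralogs, so a probe of one may read the other. Differences without overlap were 2.14 ± 0.84 for Gsta4, 2.0 ± 0.72 and 1.45 ± 0.52 for the pentose phosphate enzymes Pgd and Tkt, and 0.67 ± 0.30 for the thioredoxin reductase Txnrd1. The YFP-negative fraction had a median change of 0.87 against the same day 0 arrays, and between the fractions Gsta1 and Gsta2 differed by 0.05 ± 0.73 and -0.06 ± 1.17. The antioxidant response element TGACNNNGC was in 7 of 19 promoters of the list (36.8%), against 14.0% of all genes. This element is part of how such genes are known, so the share describes the list and is no result of the arrays. Among the upstream sequences looked at, Gsta1, Gsta2 and Srxn1 had no match, and Txnrd1 had a match at 1 of its start sites.

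Heme synthesis, the pathway that DDC blocks at its last enzyme, showed no member without overlap among 8 genes. Of all genes 6.97% were higher and 13.6% lower. Without YFP-positive array 1, 2 of the 8 were higher (25%, against 9.37%), and without array 4, 1 was lower (12.5%, against 22.5%). The median change was 0.23, but -0.32 with the mean of all probes and -0.02 without array 4. Within slides 1 and 3 it was -0.20 and -0.12. Alas1, the first and rate-setting enzyme in liver, had -1.97, -0.98, -1.48 and -0.87 on the YFP-positive arrays and -1.55 and -1.68 on the day 0 arrays (0.29 ± 0.39, adjusted p = 0.840, limma). Fech, which encodes that last enzyme, had 1.75, 1.74, 2.29 and 1.86 on the YFP-positive arrays and 4.30 and 1.75 on the day 0 arrays, which lay far apart. The erythroid list, with Alas2 as its first member (-0.49, 0.99, 3.48 and -4.77 on the YFP-positive arrays and 6.09 and 0.97 on the day 0 arrays), had a median change of -1.92. Without day 0 array 1 that median was -0.57, without day 0 array 2 it was -3.36, and within slide 3 it was 0.98.

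Acute phase genes, induced in the liver by inflammatory cytokines, had positive changes in all 14 measured members, with a median of 1.72 and a range of 0.21 to 6.57. Il1rn passed, and 6 members (42.9%, against 6.97% of all genes) were higher without overlap. Without array 4 it was 10 (71.4%, against 10.1%). Saa1, a serum amyloid gene, had 1.22, -1.24, -0.63 and -0.82 on the YFP-positive arrays and -2.60 and -1.60 on the day 0 arrays (1.73 ± 0.84, adjusted p = 0.501, limma). Lcn2, the iron-scavenging lipocalin, chosen after its values were seen, had 1.41, 0.48, -1.47 and 4.76 on the YFP-positive arrays and -3.81 and -5.27 on the day 0 arrays, a change of 5.83 ± 1.48 (adjusted p = 0.253, limma). Differences were 2.32 ± 0.63 for Steap4, a relative of Steap1, 2.86 ± 0.84 for the fibrinogen chain Fga and 1.73 ± 0.66 for haptoglobin, Hp. Between the fractions Lcn2 stood 2.89 ± 1.31 higher in YFP-positive than in YFP-negative cells, while Steap4 and Hp differed by -0.34 ± 0.55 and -0.23 ± 0.59.

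Chemokine genes had a median change of 1.21 over 19 members, with 4 higher without overlap (21.1%, against 6.97% of all genes), or 9 (47.4%, against 10.1%) without array 4. The median was 0.25 without day 0 array 2 and 0.64 without YFP-positive array 1. Ccl2, the chemokine that draws monocytes, had 1.32, 1.51, 0.10 and 2.30 on the YFP-positive arrays and -1.88 and -1.54 on the day 0 arrays, a change of 3.02 ± 0.74 (adjusted p = 0.236, limma). Besides Cxcl5 these were Ccl20, a ligand of CCR6, with -0.07, -1.20, -2.32 and -0.89 on the YFP-positive arrays and -2.79 and -2.86 on the day 0 arrays, and Cxcl14, with 0.66, -1.76, 0.68 and -3.65 on the YFP-positive arrays and -4.22 and -4.59 on the day 0 arrays, both chosen after their values were seen. Between the fractions Ccl20 stood 2.23 ± 0.59 and Cxcl5 3.16 ± 1.22 higher in YFP-positive cells, and Cxcl14 differed by -1.21 ± 1.04. The leukocyte chemokines Ccl3, Ccl4 and Ccl6, chosen after their values were seen, were lowest on YFP-positive array 4 at -8.93, -4.27 and -5.28. Ccl2 and Cxcl5 of the same list were instead highest on that array, at 2.30 and 2.46.

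Cytoskeletal genes included Tubb6 and had 11 of 18 members higher without overlap (61.1%, against 6.97% of all genes) and none lower. Their median change was 1.20. Leaving out any 1 array left 11 to 13, while the share of all genes higher rose to between 8.96% and 13.8%. Members chosen after their values were seen were S100a6, a calcium-binding protein, with 4.34, 2.79, 2.34 and 4.01 on the YFP-positive arrays and 1.31 and -0.28 on the day 0 arrays (2.85 ± 0.76), and Tuba1c, an alpha-tubulin, with 5.44, 5.32, 5.16 and 6.16 on the YFP-positive arrays and 4.40 and 3.85 on the day 0 arrays (1.39 ± 0.39). S100a11, the actin-sequestering Tmsb10 and the membrane-binding Anxa2 had differences of 1.77 ± 0.51, 1.44 ± 0.46 and 1.29 ± 0.43. Actb and Tuba1a had differences of 0.14 ± 0.31 and -0.13 ± 0.33. Within slides, where 1 YFP-positive array was set against 1 day 0 array, the median of the list was 1.03 on slide 1 and 0.46 on slide 3.

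**Figure D4:**
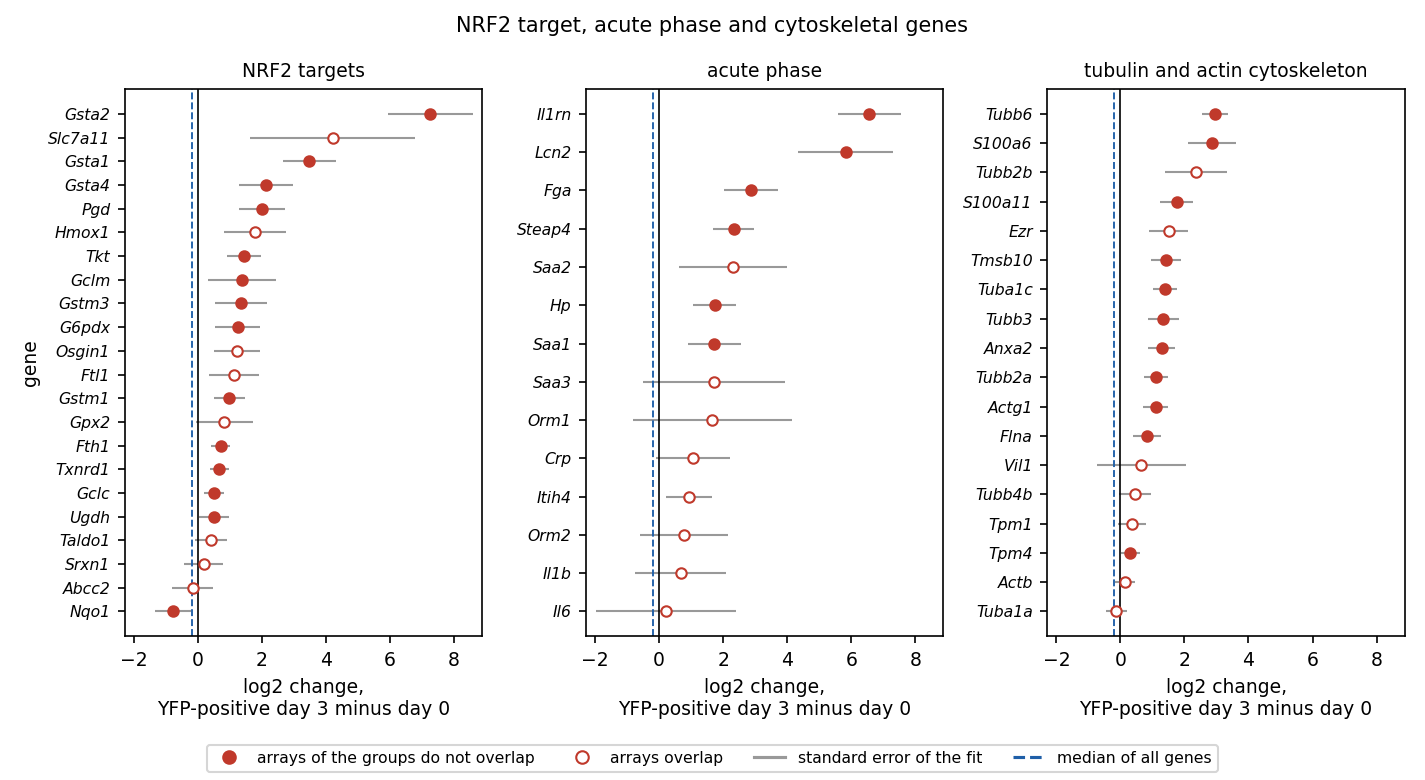
Log2 change, YFP-positive day 3 minus day 0, of the 22 NRF2 targets, 14 acute phase genes and 18 cytoskeletal genes, with the standard error of the fit as the bar. Filled points mark genes whose arrays do not overlap between the groups and the dashed line is the median of all genes at -0.19; Gsta2 at 7.25 and Il1rn at 6.57 lie farthest right.

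Among stress and signal lists the heat shock genes had 6 of 12 members higher without overlap (50%, against 6.97% of all genes). Their median change was 0.59, and it was 0.28 within slide 1 and 0.17 within slide 3. The chaperone Hspa1a had -1.02, 2.29, 0.62 and 2.25 on the YFP-positive arrays and 0.16 and -0.31 on the day 0 arrays (1.11 ± 1.08). Immediate early genes had a median of 0.10 over 18 members, with 3 higher and 3 lower without overlap (16.7% each, against 6.97% and 13.6% of all genes). These genes are bright, and of the brightest of 4 equal bins of genes by mean intensity 16.4% were higher and 13.6% lower, near the shares of the list. Fos, a subunit of the AP-1 factor, had 2.12, 2.20, 2.15 and 3.97 on the YFP-positive arrays and 2.18 and 2.92 on the day 0 arrays (0.06 ± 0.65). Higher in that list, chosen after their values were seen, were Myc, with 0.47, 1.66, 1.04 and -0.30 on the YFP-positive arrays and -0.67 and -0.52 on the day 0 arrays, and the zinc finger factor Egr2 (2.35 ± 1.0). Lower was the AP-1 subunit Fosl1, with -6.41, -4.87, -3.17 and -5.50 on the YFP-positive arrays and -2.63 and -2.25 on the day 0 arrays.

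TGF-beta genes had a median of 0.36 over 16 members, with 4 higher (25.0%, against 6.97% of all genes) and 2 lower (12.5%, against 13.6%) without overlap. The ligand Tgfb1 had -2.28, -2.56, -2.29 and -2.18 on the YFP-positive arrays and -3.72 and -2.48 on the day 0 arrays (0.77 ± 0.86). Thbs1, a thrombospondin that can free latent TGF-beta, chosen after its values were seen, had 1.47, 1.12, 0.10 and 1.03 on the YFP-positive arrays and -3.59 and -2.91 on the day 0 arrays, a change of 4.18 ± 1.04 (adjusted p = 0.247, limma). The integrin chain Itgav, which also activates the ligand, stood 2.22 ± 0.73 higher and differed by 2.36 ± 0.64 between YFP-positive and YFP-negative cells. The 14 TWEAK, TNF and lymphotoxin genes had a median of 0.54, with 3 higher without overlap (21.4%, against 6.97% of all genes). Tnfrsf12a, the TWEAK receptor of ductal progenitors, had 1.11, 2.36, -0.98 and 3.29 on the YFP-positive arrays and -0.35 and -0.95 on the day 0 arrays (2.10 ± 0.90, adjusted p = 0.461, limma), with array 3 below both day 0 arrays. Ltb, a lymphotoxin chain chosen after its values were seen, had 0.93, -0.07, -0.53 and 0.66 on the YFP-positive arrays and -1.80 and -1.96 on the day 0 arrays.

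Bile duct and progenitor markers had positive changes in 22 of 24 members, while 1 was higher and 1 lower without overlap (4.17% each, against 6.97% and 13.6% of all genes). The median change was 1.0. Krt19, the duct keratin, had 2.79, 2.26, -1.47 and 4.48 on the YFP-positive arrays and -0.12 and -1.5 on the day 0 arrays, a change of 2.83 ± 1.43 (adjusted p = 0.514, limma). Array 3 lay near the lower day 0 array and array 4 was highest. The members without overlap, chosen after their values were seen, were the keratin Krt8, higher on every array at 4.75, 4.39, 2.05 and 5.84 on the YFP-positive arrays against 1.53 and 0.67 on the day 0 arrays (3.16 ± 0.82), and the water channel Aqp1, lower on every array at 5.61, 5.95, 5.81 and 5.54 on the YFP-positive arrays against 6.17 and 6.06 on the day 0 arrays (-0.38 ± 0.29). Without array 3, 18 of the 24 were higher without overlap (75%), against 11.9% of all genes.

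The biliary list had a wider median difference between the 2 day 3 fractions than between YFP-positive cells and day 0, though the fractions overlapped. Its median level was 1.5, 1.52, -1.5 and 2.88 on the YFP-positive arrays and -3.17, 0.47 and -2.23 on the YFP-negative arrays. YFP-positive array 3 thus lay below 1 YFP-negative array. For the difference 16 of 24 members had an unadjusted p under 0.05 by limma, against 7.85% of all genes. These members were read on the same arrays and are not independent of each other. The median difference was 2.70, and none passed the adjustment. Against day 0 the YFP-negative median change was -0.86. The 18 epithelial junction genes followed, with a median of 1.53 against day 0 and of 2.53 between the fractions. With all arrays 0 of the 18 were clear of day 0, and without array 3 it was 14 (77.8%, against 11.9% of all genes). The median against day 0 was 2.29 without array 3 and 0.79 without day 0 array 2. Cdh1, the epithelial cadherin, had 2.36, 2.15, -1.43 and 3.8 on the YFP-positive arrays and -0.01 and -0.33 on the day 0 arrays (1.88 ± 1.30). Within slide 3, which holds YFP-positive array 3 and day 0 array 2, the biliary list had a median of -0.30 and the junction list one of -0.69. Within slide 1 they had 1.06 and 1.19. The 17 motile cilium genes had a median change of 0.25, with Foxj1, the regulator of motile cilia, at 2.58, 3.31, -1.43 and 3.97 on the YFP-positive arrays and 0.66 and -0.54 on the day 0 arrays.

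Hepatocyte genes had a median change of 0.86 over 19 measured members, with 5 higher without overlap (26.3%, against 6.97% of all genes) and none lower. The median was 0.21 without day 0 array 1, 0.22 without YFP-positive array 1 and 0.45 without array 3, and 9 members were higher (47.4%, against 10.1%) without array 4. Alb, serum albumin, had 5.33, 4.43, 4.11 and 6.22 on the YFP-positive arrays and 4.37 and 3.78 on the day 0 arrays (0.95 ± 0.59, adjusted p = 0.60, limma). The members without overlap, chosen after their values were seen, were the plasma protein genes Fgb, Trf, Ahsg and Apob and the tyrosine aminotransferase Tat. Fgb, a fibrinogen chain, had 5.0, 3.60, 3.57 and 4.75 on the YFP-positive arrays and 2.48 and 2.03 on the day 0 arrays (1.97 ± 0.59). The cytochrome Cyp2e1, of hepatocytes around the central vein, was well above background on 2 of the 4 YFP-positive arrays and had 0.68, -9.49, -4.16 and -9.16 on the YFP-positive arrays and -3.70 and -2.81 on the day 0 arrays.

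Leukocyte lists had positive medians with all arrays, and these and the counts turned on single arrays. The 15 pan-leukocyte markers had a median change of 1.31 and 14 positive values, with 1 higher without overlap (6.67%, against 6.97% of all genes). The 15 neutrophil markers had a median of 1.86 and none without overlap, and their first member S100a8 had 2.41, -1.04, 1.82 and -8.29 on the YFP-positive arrays and 0.07 and -8.03 on the day 0 arrays. The Kupffer cell list had a median of 0.73 over 18 genes, 2 of them higher without overlap (11.1%, against 6.97% of all genes). Its first member Clec4f had 3.04, 2.52, 3.28 and -2.18 on the YFP-positive arrays and 3.22 and 0.70 on the day 0 arrays. Cd14, the endotoxin co-receptor in that list, chosen after its values were seen, had 0.34, -0.12, -1.03 and 2.39 on the YFP-positive arrays and -2.50 and -2.47 on the day 0 arrays, with the highest value on array 4, which had the lowest pan-leukocyte median. Medians were 0.09 for 22 T and NK cell genes (Cd3e -0.27 ± 1.31), 0.91 for 15 B and plasma cell genes, 0.51 for 15 dendritic cell genes (Flt3 0.67 ± 1.04) and 0.17 for 10 platelet genes (Pf4 2.09 ± 0.99). Without YFP-positive array 4, 11 of 15 pan-leukocyte (73.3%), 8 of 18 Kupffer cell (44.4%), 7 of 15 B and plasma cell (46.7%) and 5 of 15 dendritic cell genes (33.3%) were higher without overlap, against 10.1% of all genes. Without day 0 array 1 it was 6 of 15 pan-leukocyte, 8 of 15 B and plasma cell (53.3%) and 7 of 15 dendritic cell genes (46.7%), against 13.8%. Without YFP-positive array 4 the pan-leukocyte median was 2.47, the neutrophil median 2.96 and the Kupffer cell median 1.64. Without day 0 array 2 they were 0.27, 0.36 and -0.27, and the medians of the T and NK cell, B and plasma cell and dendritic cell lists were -0.52, -0.09 and -0.22. Without YFP-positive array 1 the T and NK cell median was -0.61.

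Endothelial genes stood lower. All 20 sinusoidal endothelial markers had negative changes, with a median of -1.47 and 5 lower without overlap (25.0%, against 13.6% of all genes), and none passed. Stab2, a scavenger receptor of these cells, had 2.61, 3.65, 4.43 and 1.86 on the YFP-positive arrays and 4.56 and 4.77 on the day 0 arrays (-1.53 ± 0.72, adjusted p = 0.490, limma). Every YFP-positive array was lower, array 3 the least and array 4 the most. Kdr and Tek, receptors of vascular growth factors, and Ehd3 and Oit3, chosen after their values were seen, were likewise highest on array 3 and lowest on array 4, with changes of -2.19 ± 1.0, -1.71 ± 0.91, -1.81 ± 0.67 and -1.88 ± 1.11. Without array 4 the list median was -0.74, and within slide 3 it was -0.00103. Without array 3, 16 of the 20 were lower without overlap (80.0%, against 19.8% of all genes), and without day 0 array 1 it was 10 (50%, against 22.7%). The 14 lymphatic and large vessel genes had a median of -1.12, with 3 lower without overlap (21.4%, against 13.6% of all genes). That median was -0.32 without array 4. Mmrn1, a lymphatic matrix protein, had -8.46, -7.97, -3.03 and -6.84 on the YFP-positive arrays and -2.67 and -2.27 on the day 0 arrays and was well above background on only 1 of the YFP-positive arrays.

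Stromal lists gave no uniform direction. The 16 stellate cell genes had a median change of 0.17, which was -0.56 without day 0 array 1, 0.67 without day 0 array 2, -0.05 and -0.02 without YFP-positive arrays 2 and 3, and -0.10 with the mean of all probes, and the 16 myofibroblast and matrix genes one of -0.76, which was 0.33 without YFP-positive array 4. Lrat, which stores retinol in stellate cells, had -2.11, -0.58, -0.88 and -3.05 on the YFP-positive arrays and -3.47 and -1.31 on the day 0 arrays. Col1a1, the fibrillar collagen chain, had -0.09, 1.90, 1.49 and -7.21 on the YFP-positive arrays and -0.00 and 0.39 on the day 0 arrays, with array 4 far below all others. The 7 mesothelial genes had a median of -0.85, with Msln lower on every array at -1.09, -4.52, -2.63 and -1.16 on the YFP-positive arrays against -0.81 and -0.70 on the day 0 arrays.

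Interferon-induced genes had 8 of 20 members lower on every YFP-positive array (40%, against 13.6% of all genes) and none higher, at a median of -0.74. Ifit1, an antiviral RNA-binding protein, had -1.66, -0.80, -1.90 and -1.15 on the YFP-positive arrays and -0.34 and -0.20 on the day 0 arrays (-1.11 ± 0.95, adjusted p = 0.713, limma). The members with the smallest p, chosen after their values were seen, were Ifit3, with 1.37, 0.96, 1.67 and -1.41 on the YFP-positive arrays and 3.24 and 3.04 on the day 0 arrays (-2.49 ± 0.85), and Rsad2, the antiviral enzyme viperin, with 2.92, 2.43, 3.75 and -0.70 on the YFP-positive arrays and 5.38 and 3.98 on the day 0 arrays (-2.58 ± 0.95). Leaving out any 1 array left 8 to 12 members lower without overlap. The share of all genes lower then rose as well, to between 16.1% and 24.4%. The YFP-negative fraction had a median of -0.69 against the same day 0 arrays.

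No gene of the developmental pathways passed, and over all genes 6.97% were higher and 13.6% lower without overlap. Of 21 Wnt genes 4 were lower without overlap (19.0%, near the share of all genes), 18 had negative changes and the median was -1.39. That median was -0.69 after normexp and quantile normalization and -0.82 without YFP-positive array 4, and 8 genes were lower without overlap without array 3 (38.1%, against 19.8% of all genes), 7 without day 0 array 1 (33.3%, against 22.7%) and 9 without day 0 array 2 (42.9%, against 24.4%). Wnt2, a ligand of sinusoidal endothelium, had 1.66, 1.78, 3.23 and 0.32 on the YFP-positive arrays and 3.90 and 3.13 on the day 0 arrays (-1.77 ± 0.69), and the R-spondin Rspo3, chosen after its values were seen, had 1.17, 1.80, 2.33 and -1.17 on the YFP-positive arrays and 3.85 and 2.44 on the day 0 arrays (-2.11 ± 0.88). Of 17 Notch genes 5 were lower without overlap (29.4%) at a median of -0.62, and 9 were (52.9%, against 19.8% of all genes) without array 3 and 8 (47.1%, against 22.7%) without day 0 array 1. The receptor Notch1 had 1.95, 2.17, 2.96 and -0.39 on the YFP-positive arrays and 3.31 and 3.35 on the day 0 arrays (-1.66 ± 0.64), and the endothelial ligand Dll4, chosen after its values were seen, -2.99, -2.30, -1.32 and -2.63 on the YFP-positive arrays and -0.58 and -0.37 on the day 0 arrays (-1.84 ± 0.63). Wnt2, Rspo3 and Notch1 were lowest on array 4, as was the sinusoidal endothelial list, and Dll4 was lowest on array 1. The part of the cell mixture in these changes was not tested.

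The 14 Hedgehog genes had a median of -0.85, 0.09 after normexp and quantile normalization and -0.24 without day 0 array 1, with 3 lower without overlap (21.4%, against 13.6% of all genes). The ligand Ihh had -3.05, -2.26, -3.86 and -2.25 on the YFP-positive arrays and -4.48 and -3.51 on the day 0 arrays (1.14 ± 0.62), and Gas1, a co-receptor chosen after its values were seen, had -4.36, -7.18, -5.89 and -6.45 on the YFP-positive arrays and -2.77 and -1.97 on the day 0 arrays (-3.60 ± 1.19). The 16 YAP target genes had a median of -0.10, positive after normexp and quantile normalization (0.08), after scaling to the array median (0.20) and without day 0 array 1 (0.19), with 1 higher (6.25%) and 3 lower (18.8%) without overlap, near the shares of all genes. Ccn1, a matricellular YAP target, had 1.95, 2.51, 0.88 and 3.11 on the YFP-positive arrays and 1.04 and 1.66 on the day 0 arrays (0.76 ± 0.88). Lower, chosen after its values were seen, was Amotl2, a negative regulator of YAP, with 0.52, 0.89, 1.57 and 0.60 on the YFP-positive arrays and 2.89 and 2.78 on the day 0 arrays (-1.94 ± 0.52).

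The 8 genes that fell had a low mean intensity. All 8 lie in the dimmest of 4 equal bins of genes by mean intensity over the 20 arrays. Most of those 20 arrays, which include the arrays compared, are from DDC-fed mice. A gene that is low on them is thus placed among the dim genes partly by its own fall. Low brightness on the day 0 arrays does not follow from the bin. Of the 8 genes, 7 were well above background on both day 0 arrays and on no YFP-positive array. Trhr, the receptor of thyrotropin-releasing hormone, had -10.18, -9.79, -9.86 and -9.18 on the YFP-positive arrays and -3.99 and -3.05 on the day 0 arrays. As the YFP-positive arrays hold only a bound, it was at least 31.7-fold lower there on this scale (fitted change -6.23 ± 0.50, adjusted p = 5.76e-05, limma). Such a bound sets the day 0 mean against, per YFP-positive array, the lowest signal among probes well above background or the gene's own if that was higher. It holds only for the processed signal and scaling used here, and the fall was smaller after normexp and quantile normalization.

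Iqcj was at least 15.4-fold lower in YFP-positive cells (adjusted p = 6.89e-04, limma), with -10.04, -9.32, -9.76 and -8.66 on the YFP-positive arrays and -3.75 and -5.38 on the day 0 arrays. Opn1mw, a cone opsin, was at least 9.81-fold lower (adjusted p = 6.89e-04, limma) and Olfr39, an olfactory receptor, at least 8.26-fold lower (adjusted p = 0.0179, limma). Prdm9, the histone methyltransferase that places meiotic recombination, was well above background on 1 YFP-positive array and had -7.78, -7.67, -6.57 and -8.59 on the YFP-positive arrays and -2.78 and -3.77 on the day 0 arrays. It fell by 4.38 ± 0.69 on the log2 scale (adjusted p = 0.0268, limma). The other 3 genes have only clone identifiers, and their bounds were at least 4.8-fold, 4.86-fold and 14.3-fold lower. The probes of the opsin and the olfactory receptor are shown because neither gene is a usual liver gene (mm9, chrX:71389017-71395936 and chr9:20090683-20090742, plus strand).
Opn1mw probe: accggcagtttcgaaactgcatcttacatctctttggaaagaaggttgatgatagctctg
Olfr39 probe: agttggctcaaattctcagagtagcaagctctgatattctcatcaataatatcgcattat

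Trhr, Iqcj, Opn1mw and Olfr39 were not well above background on any YFP-positive or any YFP-negative day 3 array, so their levels in the fractions cannot be compared. After normexp background correction and quantile normalization the change of Trhr was -1.43 (adjusted p = 0.0115, limma), and the other 7 falls were between -0.27 and -1.24 and did not pass.

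The balance of higher and lower values changed with brightness, taken as the mean intensity used for the bins. That mean includes the arrays compared, so the bin of a gene and its change are not independent. The trend across bins is in part set by the binning. Of the dimmest bin 1.17% of genes were higher and 14.5% lower on every YFP-positive array, and of the brightest bin 16.4% were higher and 13.6% lower. In all, 222 genes were well above background on both day 0 arrays and on no YFP-positive array, and 5 genes had the reverse pattern. These 5 were Srd5a2, Aurkb, Nudt12os, Olfr461 and Treh, named for that pattern after it was seen. Srd5a2, a steroid 5-alpha-reductase, had -1.56, 0.97, -4.52 and 4.78 on the YFP-positive arrays and -7.83 and -9.84 on the day 0 arrays, at least 330-fold higher, with YFP-positive values that spread widely (adjusted p = 0.152, limma). Nudt12os was well above background on none of the YFP-negative arrays either. Of 846 olfactory receptor genes, a family chosen after the genes that fell were seen and known for expression in the nose, 61.6% were well above background on all 4 YFP-positive arrays and 82.2% on both day 0 arrays, against 77.8% and 90.5% of all genes, where all of 4 arrays is a stricter demand than both of 2. Of these receptors 12.3% were lower without overlap, against 13.6% of all genes.

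**Figure D5:**
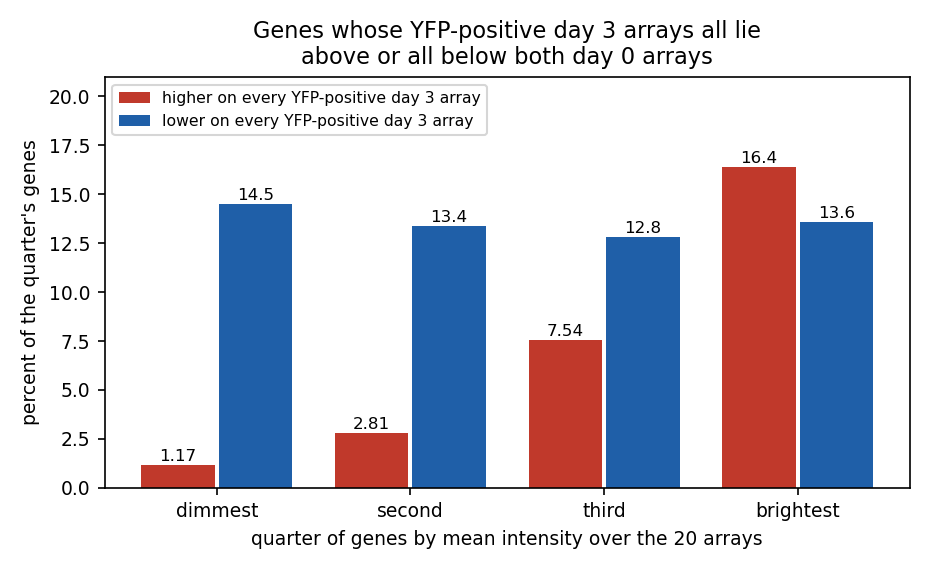
Percent of the genes of each of 4 equal brightness bins that were higher (red) or lower (blue) on all 4 YFP-positive day 3 arrays than on both day 0 arrays. The share of higher genes runs from 1.17% in the dimmest to 16.4% in the brightest bin, while the share of lower genes stays between 12.8% and 14.5%. The mean intensity behind the bins includes the arrays compared, so bin and change are not independent.

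The next lower genes without overlap included Krt35, Olfr1324, Kcnj3, Olfr1295, Olfr967, Shisal2b, Samd7 and Olfr869, with adjusted p between 0.106 and 0.206 by limma. Well above background on all 6 arrays were Olfr967, Macf1, which links actin to microtubules, and Prelp, a matrix proteoglycan. Macf1 had -0.82, 0.23, 0.94 and -1.38 on the YFP-positive arrays and 1.91 and 1.88 on the day 0 arrays (-2.15 ± 0.49, adjusted p = 0.206, limma). Prelp had -1.04, -1.06, -0.00 and -2.22 on the YFP-positive arrays and 1.17 and 1.31 on the day 0 arrays (-2.32 ± 0.54, adjusted p = 0.218, limma). Both were lowest on array 4, and the YFP-positive minus YFP-negative differences were -1.26 ± 0.43 and -1.31 ± 0.48.

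The authors' deposited table gives its own fold changes between the same groups by a method not stated in the sources used here. Its day 0 group may hold further samples of the series that came without a scanner file and were not used here. At a false discovery rate under 5 percent the authors' deposited table lists 421 genes as higher (1.59% of 26448) and 96 as lower (0.363%). All 6 genes that rose are among them, Il1rn at 209.7-fold in the authors' deposited table, Plaur at 12.9-fold and Tubb6 at 8.65-fold. None of the 8 that fell is, and Trhr stands there at -17.9 with a rate of 6.86 percent, where a negative fold is a fall. Iqcj, Opn1mw and Olfr39 stand there at -4.1, -3.1 and -2.95. All of these falls are smaller than the bounds given above for the same genes. Of the lists the authors' deposited table has 13 of 20 mitosis genes (65.0%) and 7 of 20 replication genes (35.0%) higher at that rate, against 1.58% of the genes tested here.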

How the data were processed

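Per the labels' protocols, RNA of sorted or total non-parenchymal cells was hybridised to 1-colour Agilent mouse arrays. The deposited scanner files hold intensities, background-corrected by Agilent Feature Extraction (9.53 per the submitters' processing notes, 10.5.1.1 per the file headers, design 014868). The authors' deposited table gives a signed fold change, read here as a score, with a false discovery rate in percent.

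The log2 intensity of each spot, taken here from the deposited processed signal, was set relative to the 75th percentile of its array. Of 41174 probes, 39595 passed the filter (above background on 2 or more arrays), and the brightest probe stood for each of 26650 genes. Of these 19493 were named by accession, symbol or synonym. Groups followed sample titles. All 20 arrays in 7 groups entered 1 fit (R 4.3.3, limma 3.58.1, lmFit and eBayes), with Benjamini-Hochberg adjustment over all genes and a threshold of 0.05. A gene with a missing value on an array was fitted without that array, as were 66 genes on the 6 arrays. The number of arrays limits the precision.

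Named genes were up to 15 in each direction, those past the threshold first and then those without overlap in order of unadjusted p, with Ptprc and the first member of each list. Other list members named were chosen after their values were seen. A few genes that this rule names are not reported here. Members and lists were chosen with earlier results of these data known. The procedure was tested on simulated data. Alternatives covered background correction, scaling, filter, probe choice, arrays in the fit, slide, replicate number, array weights and each array left out.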

Additional observations from a re-analysis of the deposited data

Results flagged for a closer look

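Of 65 sets of YFP-positive values tested, 9 held an array far from the other 3. The cut-off is passed by about 1 in 20 sets of independent normal values. These sets are genes picked from the same arrays and lists read on them, so that rate is no reference for the count. Array 4 was the distant one in 4, being highest for Shisal2b (-9.02) and lowest in the median level of the myofibroblast and matrix (-3.53), lymphatic and large vessel (-3.54) and Notch pathway (-1.39) lists. Array 3 was the lowest for Nhp2 (1.03) and Cxcl5 (-2.13) and for the TGF-beta list (-1.22). Array 2 was the highest for the Hedgehog pathway (-2.60) and YAP target (0.54) lists.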

How the results depend on the processing

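The count of 14 genes (6 higher, 8 lower) held within 1.5 times under quantile normalization, scaling to the array median, both filters on dim probes and slide as a random block. It was 3 (2 higher, 1 lower) after normexp and quantile normalization, 9 (2 higher, 7 lower) with the mean of all probes of a gene, 0 with only the arrays of the groups compared, 7 (1 higher, 6 lower) with slide as a fixed block and 83 (32 higher, 51 lower) with array weights. Leaving out 1 array gave 4 to 65 genes. Those that moved it by over 1.5 times were day 0 array 1 (4), day 0 array 2 (33), and YFP-positive arrays 1 (6), 2 (8) and 3 (65). Without YFP-positive arrays 3 and 4, an alternative chosen after seeing the data, it was 33 (8 higher, 25 lower). The authors' deposited table lists 517 genes (421 higher, 96 lower), 6 of the 14 among them. The cause of these differences was not tested. The count between the fractions was 0 under every other setting run and 0 to 7 when 1 array was left out, being 7 without YFP-positive array 3 and 1 without YFP-negative array 4.

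With a replicate block 3 genes passed (0 higher, 3 lower), namely Trhr, Iqcj and Opn1mw. The groups share only 2 replicate numbers, and the deviations of same-numbered arrays correlated at 0.13 and 0.0503, so the numbers were not taken as pairs. The median change of all genes was -0.19, and 0.0634 after normexp and quantile normalization, 0.0926 after quantile normalization and 0.106 after scaling to the array median. For single genes and lists 1682 values kept their direction and side of the threshold or stayed within the spread, 95 no longer passed, 27 passed newly, 63 moved and 0 of the called values changed sign. Over 18 alternatives every one of the 14 genes kept its sign. Trhr passed in 17, Iqcj and Opn1mw in 16, Plaur and Tubb6 in 12, Sprr1a in 11, Olfr39 in 10, Prdm9 in 9, and Il1rn, Dtl and Steap1 in 8. Of the 14, 4 still passed without day 0 array 1, 6 without day 0 array 2, and 5, 7, 14 and 10 without YFP-positive arrays 1, 2, 3 and 4. Falls of dim genes are limited by signal over background on the YFP-positive arrays.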
